A study of Mus musculus with 6 samples.

Results

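NF-κB transcription factors and the genes that restrain or report their activity were examined on mouse arrays of progenitor-like cells given transforming growth factor β1 (TGF-β1). The set comprised 10 genes chosen by role: the subunit genes Nfkb1, Nfkb2, Rela and Relb, the inhibitor and feedback genes Nfkbia, Nfkbie, Tnfaip3 and Bcl3, and the standard target genes Icam1 and Birc3. Probes were assigned to them through the RefSeq accession in the scanner files. This gave 10 probes for 9 genes, of 29192 genes and transcripts tested, and no probe was named for Nfkb1. The cells were the Lhx2 line, a blood progenitor-like mouse line named after the LIM-homeobox gene that keeps it growing, cultured with stem cell factor and human interleukin 6. All cells had their serum replaced by albumin overnight. The treated group then spent 2 h in TGF-β1 at 10 ng/ml, while the untreated group received none (0 ng/ml), with 3 arrays each. RNA came from 3 harvests described as independent, and 2 arrays that share a replicate number form a pair. Whether harvests were separate cultures is not stated, so p-values measure the spread between these samples.

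NF-κB proteins are dimers of the RELA, RELB and REL proteins with p50 and p52, which are made from the longer products of Nfkb1 and Nfkb2. In resting cells inhibitors of the IκB family, such as the products of Nfkbia and Nfkbie, hold the dimers in the cytoplasm until an IκB kinase marks the inhibitor for destruction. The freed dimers switch on genes that include their own inhibitors, so Nfkbia and Tnfaip3 are widely used as readouts of the canonical arm, and Nfkb2 and Relb are both targets and subunits of the non-canonical arm. In blood progenitors the pathway is known for its part in survival and in inflammatory and myeloid gene expression.

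The promoters of 8 of the 10 genes could be matched by symbol to RefSeq windows of build GRCm38.p6 that run from 250 bases before a gene's start to 50 bases after it. The κB consensus, the 10-base DNA element that NF-κB dimers bind, was searched by that name on both strands, overlapping matches included. It occurred in a window of 5 of the 8 genes (Nfkb2, Nfkbia, Nfkbie, Tnfaip3 and Bcl3), against 5.14% of the 27025 genes in the table. The windows of Rela, Icam1 and Birc3 held no full match. All 10 positions had to fit, so near matches were not counted. The stretch tggaaattcc in the Icam1 window, for example, departs from the consensus only in its first letter. By window the counts were 7 of 11 for these genes and 1480 of 32851 overall. The first listed window of each gene with a match is printed 5′ to 3′, with the letters that fit the consensus in capitals. The genes were chosen as parts and targets of the pathway, so the count is a description and not independent of that choice.
Nfkb2, chr19:46304487-46304786, plus strand: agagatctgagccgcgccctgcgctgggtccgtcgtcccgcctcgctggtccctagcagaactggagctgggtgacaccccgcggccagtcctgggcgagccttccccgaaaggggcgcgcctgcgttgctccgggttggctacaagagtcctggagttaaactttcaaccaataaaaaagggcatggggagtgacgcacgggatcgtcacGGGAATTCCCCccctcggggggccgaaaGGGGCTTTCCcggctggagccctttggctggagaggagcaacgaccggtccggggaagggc
Nfkbia, chr12:55492598-55492897, minus strand: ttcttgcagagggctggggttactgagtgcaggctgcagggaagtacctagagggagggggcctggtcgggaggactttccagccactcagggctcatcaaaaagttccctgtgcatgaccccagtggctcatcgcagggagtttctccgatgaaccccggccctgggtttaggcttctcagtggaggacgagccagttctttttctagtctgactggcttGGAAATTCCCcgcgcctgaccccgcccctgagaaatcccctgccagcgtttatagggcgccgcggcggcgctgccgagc
Nfkbie, chr17:45555450-45555749, plus strand: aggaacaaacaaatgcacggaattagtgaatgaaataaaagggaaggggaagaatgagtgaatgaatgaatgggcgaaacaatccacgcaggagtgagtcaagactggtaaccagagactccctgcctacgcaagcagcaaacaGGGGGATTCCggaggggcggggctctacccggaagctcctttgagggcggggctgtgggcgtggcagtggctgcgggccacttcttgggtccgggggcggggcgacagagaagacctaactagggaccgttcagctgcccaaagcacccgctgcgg
Tnfaip3, chr10:19015361-19015660, minus strand: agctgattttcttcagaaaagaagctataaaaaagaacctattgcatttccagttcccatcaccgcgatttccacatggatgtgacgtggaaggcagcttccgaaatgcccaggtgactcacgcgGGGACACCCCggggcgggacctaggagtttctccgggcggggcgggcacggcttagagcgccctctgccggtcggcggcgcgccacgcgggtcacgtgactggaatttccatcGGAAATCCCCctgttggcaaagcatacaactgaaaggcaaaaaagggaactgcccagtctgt
Bcl3, chr7:19822706-19823005, minus strand: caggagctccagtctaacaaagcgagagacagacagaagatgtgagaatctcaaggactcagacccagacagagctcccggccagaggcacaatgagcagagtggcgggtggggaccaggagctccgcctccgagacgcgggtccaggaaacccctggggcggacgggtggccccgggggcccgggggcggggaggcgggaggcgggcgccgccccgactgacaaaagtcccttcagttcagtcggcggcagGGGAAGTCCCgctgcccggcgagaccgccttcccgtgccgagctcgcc
In Nfkb2 a pair of overlapping matches lay between 39 and 29 bases before the start and a further match between 11 and 2 bases before it. The Nfkbia match lay between 29 and 20 bases before the start, and that of Bcl3 between 3 and 12 bases after it. In Tnfaip3 the capitals mark matches between 125 and 116 and between 12 and 3 bases before the start. A match describes the letters and does not show that a factor binds there.

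The arrays read each of the 9 measured genes above background. The 75th percentile of processed signal lay between 794.2 and 1031 on the 6 arrays, between 83.1% and 90.5% of spots were well above background, and all 10 probes of the set were so on all 6 arrays. The arrays lay on 2 slides, pairs 1 and 2 each on a single slide and pair 3 across both. Slide 1 held a single treated array and slide 2 a single untreated one. Every difference given for a slide below therefore rests on a single array in one of the groups. The treatment check was clear: Smad7, the inhibitory SMAD and a direct TGF-β target, rose 11.8-fold (log2 change 3.56, SE 0.15, adjusted p = 0.00115), and Skil, a SMAD co-repressor, rose 11-fold (3.46, SE 0.13, adjusted p = 0.00101). All 10 progenitor markers were well above background on every array, Cd34 being the brightest at 56594 to 68523 in treated and 45934 to 50222 in untreated cells. The Lhx2 probe itself was dim, at 39.8 to 64.1 in treated and 40.1 to 56.1 in untreated cells. Of the 9 marker lists 0 had a member past the threshold, and their median log2 changes ran from -0.06 to 0.19. Single genes differed more than these medians. In the progenitor list the log2 changes ran from -0.67 for Lmo2 to 0.76 for Gata2 (adjusted p = 0.870 and 0.627 by limma). The brightest genes of the remaining lists were Lyz2 (macrophage), Mpo (granulocyte), Cpa3 (mast cell), Pf4 (megakaryocyte), Cd3e (lymphocyte), Zbtb46 (dendritic cell), Pecam1 (endothelial) and Col1a2 (fibroblast). Intensities here and below are on a common scale, each array's 75th percentile being set to the geometric mean of all 6; they compare arrays, not probes. In RNA from whole cultures, fewer expressing cells and less RNA per cell cannot be told apart.

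None of the 9 measured genes passed the threshold of 0.05 for the adjusted p at 2 h of TGF-β1. Over all genes tested 0.253% passed (74 of 29192; 0.226% higher and 0.0274% lower), and 0.651% passed when the replicate number was a block (190 genes), again with 0 of the 9. The largest differences in the set were higher values of Bcl3 (1.67-fold) and Icam1 (1.49-fold) in treated cells. The other 7 had fitted log2 changes between -0.28 and 0.26. The median log2 change was -0.07 over the 9 genes and -0.01 over all genes tested. At an unadjusted p under 0.05 limma gave 2 of the 9 higher and 0 lower, against 3.62% of all genes higher and 2.15% lower.

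**Figure D1:**
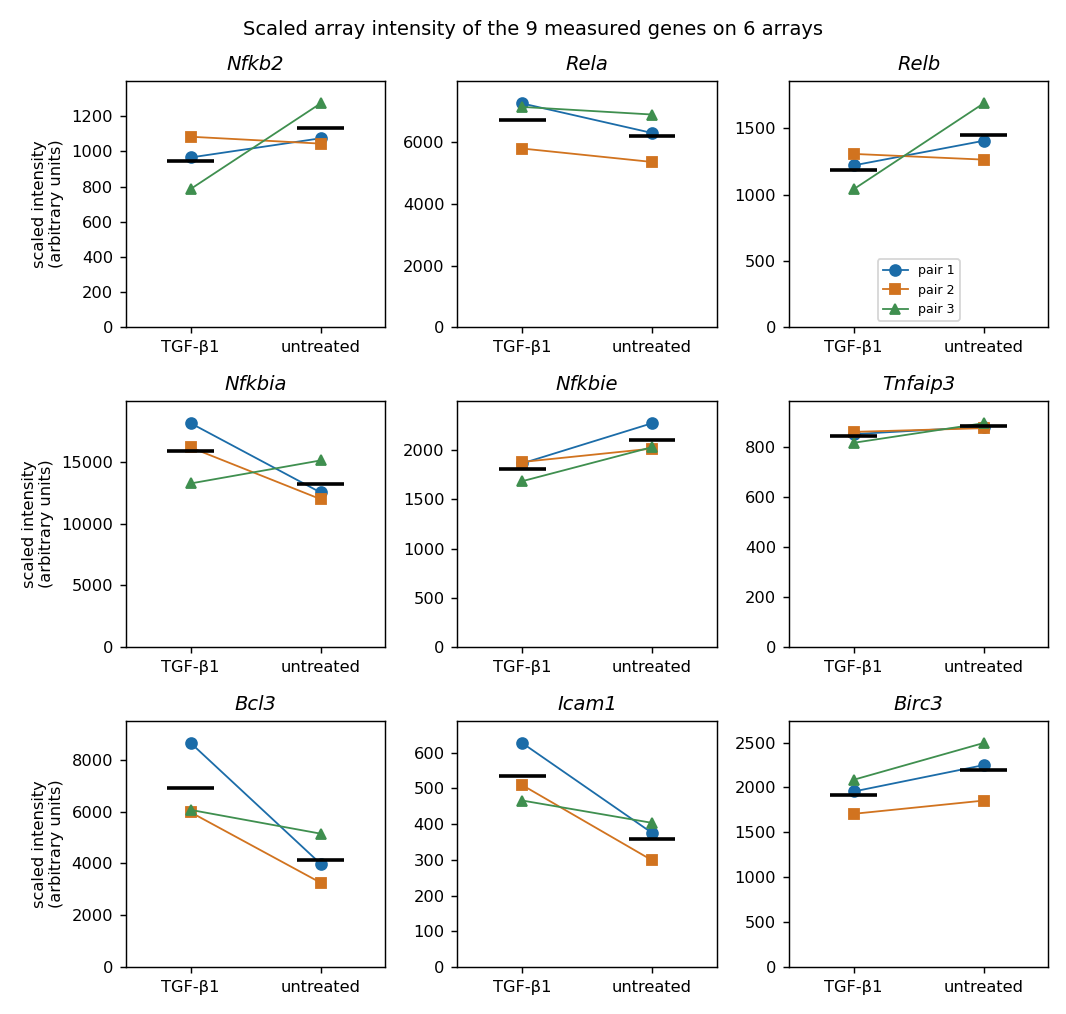
Scaled array intensity (vertical axis, arbitrary units, from 0) of each of the 9 measured genes in TGF-β1-treated and untreated cells; each marker is an array, lines join the 2 arrays of a pair and black bars are group means of 3 arrays. Bcl3 and Icam1 are higher on every treated array than on any untreated one, while the groups overlap for Nfkb2, Rela, Relb, Nfkbia and Birc3.

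Rela, which encodes the p65 activating subunit, had intensities of 7263, 5800 and 7150 on treated arrays 1 to 3, against 6305, 5364 and 6903 on untreated arrays 1 to 3. The treated array was slightly the higher in every pair, but the groups overlapped. The fitted log2 change was 0.12 (SE 0.16, 95% confidence interval -0.27 to 0.52, adjusted p = 1), which leaves room for a difference of up to 1.43-fold. With the replicate block the SE was 0.10 and the interval -0.15 to 0.40. A second, dimmer Rela probe gave 0.04, with a pair 3 value of -0.10.

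Nfkb2, the gene of p100 and p52, had 965.4, 1083 and 786.6 in treated cells, against 1074, 1044 and 1273 in untreated cells. Relb, whose product is the partner of p52, had 1221, 1308 and 1041 in treated cells, against 1407, 1265 and 1689 in untreated cells. For both genes the groups overlapped, and the lowest treated and the highest untreated value came from pair 3. The pair differences of these 2 genes lay close together: -0.15, 0.05 and -0.69 for Nfkb2 and -0.20, 0.05 and -0.70 for Relb, in pairs 1, 2 and 3. The fitted log2 changes were -0.27 (SE 0.17, 95% confidence interval -0.68 to 0.15) for Nfkb2 and -0.28 (SE 0.17, -0.69 to 0.12) for Relb, each with an adjusted p of 1. Both values shrank when pair 3 was set aside: with pairs 1 and 2 alone they were -0.05 and -0.08. Without untreated replicate 3 they were -0.18 for Nfkb2 and -0.17 for Relb, and without treated replicate 3 -0.14 and -0.19.

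Nfkbia, which encodes IκBα, an inhibitor and a rapid target of NF-κB, had 18138, 16171 and 13260 in treated cells, against 12529, 11986 and 15123 in untreated cells. It was higher after treatment in pairs 1 and 2 (pair differences 0.53 and 0.43) and lower in pair 3 (-0.19), so the groups overlapped. The fitted log2 change was 0.26 (SE 0.17, 95% confidence interval -0.16 to 0.68, adjusted p = 1). Pairs 1 and 2 alone gave 0.48 (adjusted p = 0.134).

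Nfkbie, the gene of IκBε, a second cytoplasmic inhibitor, had 1864, 1878 and 1683 in treated cells, against 2271, 2014 and 2028 in untreated cells. All treated values lay below all untreated ones, and the fitted value was 1.16-fold lower in treated cells (log2 change -0.22, SE 0.13, 95% confidence interval -0.53 to 0.09, adjusted p = 1). Tnfaip3 encodes A20, a ubiquitin-editing enzyme that shuts off signalling upstream of the IκB kinase. Its values were the tightest of the set, at 849.9, 858.7 and 815.2 in treated cells, against 878.8, 873.6 and 893.3 in untreated cells. The groups did not overlap, yet they differed by only -0.07 on the log2 scale (SE 0.12, 95% confidence interval -0.35 to 0.21, adjusted p = 1), with bounds at 1.28-fold lower and 1.16-fold higher.

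Bcl3, a nuclear IκB-family protein that binds p50 and p52 dimers on DNA and can turn them into activators, had 8653, 5974 and 6068 in treated cells, against 3986, 3255 and 5150 in untreated cells. Every treated array lay above every untreated one. The group means were 6898 ± 1520 in treated and 4130 ± 956.0 in untreated cells (SD, n = 3 each), and the pair differences were 1.12, 0.88 and 0.24. The fitted log2 change was 0.74 (SE 0.23, 95% confidence interval 0.19 to 1.30), with an unadjusted p of 0.0166 and an adjusted p of 0.546 by limma. With the replicate block the SE was 0.20 and the adjusted p 0.281. A change of this size or larger, in either direction, was seen in 2.89% of all genes tested. The log2 difference was 0.93 on slide 1 and 0.89 on slide 2, each with a single array in one group. The fit that blocks on the slide gave 0.91 (adjusted p = 0.111).

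Icam1, the adhesion molecule that binds leukocyte integrins and a classical NF-κB target, had 627.3, 509.4 and 466.2 in treated cells, against 375.4, 298.8 and 403.6 in untreated cells. Here too every treated value lay above every untreated one, with pair differences of 0.74, 0.77 and 0.21. The means were 534.3 ± 83.4 in treated and 359.3 ± 54.3 in untreated cells (SD, n = 3 each). The fitted log2 change was 0.57 (SE 0.18, 95% confidence interval 0.13 to 1.01), with an unadjusted p of 0.0183 and an adjusted p of 0.575 by limma, or 0.289 with the replicate block. The log2 difference was 0.69 on slide 1, 0.71 on slide 2 and 0.70 in the fit that blocks on the slide (adjusted p = 0.102). Birc3 encodes cIAP2, an inhibitor-of-apoptosis ligase that is both a component of TNF-receptor signalling and a target. It had 1955, 1706 and 2086 in treated cells, against 2249, 1854 and 2495 in untreated cells. Each treated array was below its own untreated partner (pair differences -0.20, -0.12 and -0.26). The groups overlapped, the level differing more between pairs than within them. The fitted log2 change was -0.19 (SE 0.17, 95% confidence interval -0.59 to 0.20, adjusted p = 1). With the replicate block the SE was 0.10 and the interval -0.47 to 0.08 (adjusted p = 0.610 by limma).

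**Figure D2:**
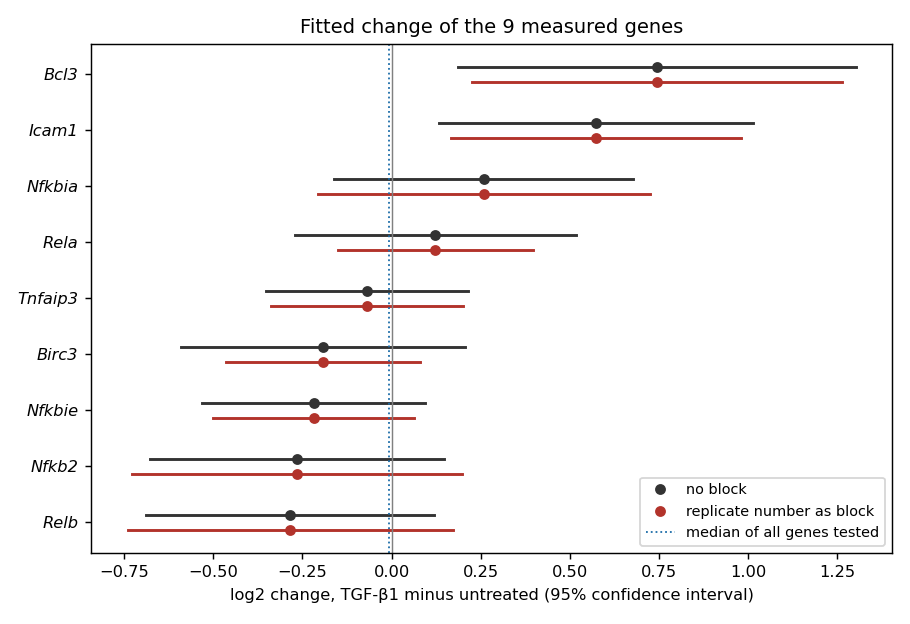
Fitted log2 change of each gene, TGF-β1 minus untreated (horizontal axis), with 95% confidence intervals from limma without a block (dark) and with the replicate number as a block (red); the dotted line is the median of all genes tested, -0.01. The intervals of Bcl3 and Icam1 exclude 0 before adjustment over all genes, and those of the other 7 genes include it.

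Groups that did not overlap were thus found upwards for 2 of the 9 genes (Bcl3 and Icam1) and downwards for 2 (Nfkbie and Tnfaip3). Over all genes tested the shares were 5.37% upwards and 5.05% downwards. The direction was the same in all 3 pairs for 6 of the 9: higher in treated cells for Rela, Bcl3 and Icam1 (14.1% of all genes) and lower for Nfkbie, Tnfaip3 and Birc3 (20.0% of all genes). Neither the inhibitor genes nor the target genes shared a direction in the fit. The inhibitor genes had 0.26 for Nfkbia against -0.22 for Nfkbie, and the target genes 0.57 for Icam1 against -0.19 for Birc3. The 2 subunit genes of the non-canonical arm had values below 0 and Rela above it. None of these differences between genes was tested.

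Pair 3 gave the lowest difference for 8 of the 9 genes, Nfkbie being the exception. Among all genes tested 30.0% had their lowest value there, and the median pair difference over all genes was -0.07, -0.07 and 0.11 in pairs 1, 2 and 3. The count depended on the scaling. It was 7 of 9 with quantile normalization, and 5 of 9 both in the authors' deposited matrix values and with normexp background correction, where 40.4%, 40.7% and 70.6% of all genes had their lowest value in pair 3. The pair 3 differences of Nfkb2 and Relb stayed below 0 in all of these (-0.69, -0.68, -0.62 and -0.49 for Nfkb2 and -0.70, -0.66, -0.42 and -0.32 for Relb, in the order scaled, quantile, matrix and normexp). With normexp, however, the pair 3 median over all genes was itself -0.38, so there Relb lay above it and Nfkb2 below it. That median was -0.002 with quantile normalization and 0.0007 in the matrix. The pair 3 difference of Nfkbia was -0.19 scaled and -0.06 with quantile normalization, but 0.07 in the matrix and 0.16 with normexp. The harvest of pair 3 also differed in cell type markers. The summed intensity of the 6 fibroblast markers averaged 7844, 22962 and 3156 over the 2 arrays of pairs 1, 2 and 3, that of the 5 measured erythroid and megakaryocyte markers 61320, 56795 and 18055, and the granulocyte gene S100a8, named after its values were seen, stood at 25459 on the treated and 27546 on the untreated array of pair 3, against at most 9762 on the other arrays. Their part in the pair 3 values was not tested.

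**Figure D3:**
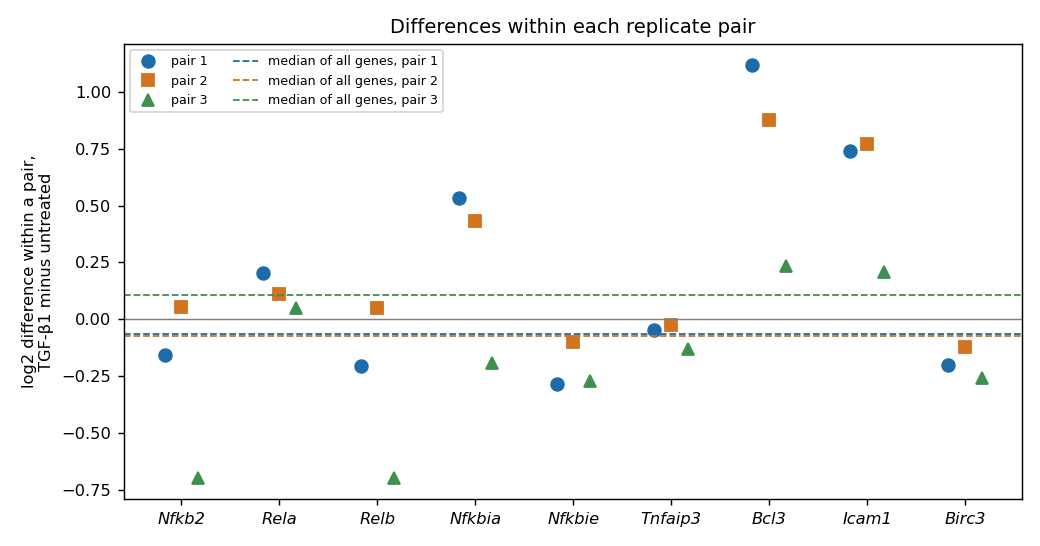
Log2 difference within each replicate pair, TGF-β1 minus untreated (vertical axis), for the 9 genes; marker shape and colour give the pair, and dashed lines give the median of all genes in that pair. The pair 3 triangles are the lowest marker for 8 genes and lie furthest apart from pairs 1 and 2 for Nfkb2, Relb, Nfkbia, Bcl3 and Icam1.

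The rest of the pathway was read from 4 lists of 78 genes, of which 73 were measured. Of these 1 rose and 0 fell over all genes tested, and 2 rose and 1 fell with the replicate block, where 0.531% of all genes rose and 0.120% fell. The median log2 change of the 73 was -0.07.

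Among 10 measured receptors 0 passed without the block and 1 rose with it. This was Tnfrsf13c, the receptor for the B-cell survival factor BAFF, which signals mainly through the non-canonical arm. It had 303.9, 211.7 and 108.3 in treated cells, against 38.9, 28.0 and 18.5 in untreated cells. Groups were far apart although the level differed between pairs. The fitted change was 7.01-fold (log2 2.81, SE 0.43, adjusted p = 0.0833, or SE 0.13 and adjusted p = 0.0134 with the replicate block). The untreated signals were close to the background, and the log2 size was 1.12 with normexp, 1.89 in the authors' deposited matrix values, 3.50 on slide 1 and 2.44 on slide 2. Of 5 lymphocyte markers 0 passed with or without the block, and their summed intensity was 851.8 to 1211 in treated and 1029 to 1416 in untreated cells. Cd3e, a T-cell receptor component with the highest intensity of the 5 probes, was lower in treated cells in all 3 pairs (log2 change -0.45, adjusted p = 1, or 0.542 with the block), and Ebf1, a B-cell transcription factor with a dim probe, had 0.84 (adjusted p = 1, or 0.645 with the block). Their part in the Tnfrsf13c value was not tested. For Tnfrsf1a, the main TNF receptor, the value was -0.14 (SE 0.19, adjusted p = 1).

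Of 24 kinases and adaptors 0 passed with or without the block, and 22 of the 24 had changes under 0.3 in size, as did 24129 of all 29192 genes tested. The list's median was -0.06. Chuk and Ikbkb, the catalytic subunits of the IκB kinase, had -0.26 (SE 0.15) and -0.06 (SE 0.15), and Ikbkg, its regulatory subunit, -0.06 (SE 0.15). Chuk was lower in treated cells in all 3 pairs with overlapping groups (95% confidence interval -0.62 to 0.10, or -0.54 to 0.02 with the replicate block). Map3k14, the kinase NIK of the non-canonical arm, had 0.01 (SE 0.13, 95% confidence interval -0.29 to 0.31), and Traf2, an adaptor that restrains it, 0.05 (SE 0.12). Each of these 5 had an adjusted p of 1.

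Of the 13 measured genes in the list of the other subunit and inhibitors 0 passed, with or without the block, and the median was 0.02. Rel, the gene of the c-Rel subunit, was dim, at 17.7, 36.6 and 45.0 in treated cells, against 21.5, 26.1 and 26.9 in untreated cells, and its groups overlapped (log2 change 0.32, SE 0.35). Nfkbib, the gene of IκBβ, had -0.21 (SE 0.20), Nfkbiz, a nuclear IκB-family gene, 0.17 (SE 0.20) and Cyld, a deubiquitinase that opposes the pathway, -0.19 (SE 0.15), each with an adjusted p of 1.

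Of 26 other target genes measured, 1 rose and 0 fell without the block, 1 rose and 1 fell with it, 18 had values below 0, and the median was -0.12. Il6, the cytokine gene whose human protein was in the culture medium, rose 2.63-fold: it had 1082, 1266 and 1283 in treated cells, against 429.3, 537.7 and 418.7 in untreated cells (log2 1.39, SE 0.16, adjusted p = 0.0375). It was higher by 1.33, 1.24 and 1.62 in pairs 1, 2 and 3. On slide 1 the difference was 1.35 and on slide 2 it was 1.25. The call was lost when any 1 array was left out (log2 changes 1.33 to 1.51, adjusted p between 0.0708 and 0.246), with normexp (1.15, adjusted p = 0.393) and without the filter on dim probes (adjusted p = 0.054). Ccl4, a chemokine gene of activated myeloid cells, had 538.5, 534.3 and 679.7 in treated cells, against 1937, 1197 and 2202 in untreated cells. All treated values lay below all untreated ones, and Ccl4 was 2.97-fold lower in treated cells (log2 change -1.57, SE 0.25, adjusted p = 0.0949), passing only narrowly with the replicate block (adjusted p = 0.0491). The log2 difference was -1.94 on slide 1 and -0.99 on slide 2. Of 5 measured macrophage markers 0 passed with or without the block, and their summed intensity, most of it from Lyz2, was 134728 to 150179 in treated and 131069 to 166272 in untreated cells. Csf1r, the receptor for the macrophage growth factor M-CSF, was higher in treated cells in all 3 pairs (log2 change 0.40, adjusted p = 1, or 0.274 with the block), and Mrc1, the mannose receptor, lower in all 3 (-0.31, adjusted p = 1, or 0.425 with the block). Their part in the Ccl4 value was not tested. Tnf, the prototypical activating cytokine, had 549.8, 448.0 and 575.3 in treated cells, against 684.5, 515.8 and 742.8 in untreated cells, lower in each pair with overlapping groups (log2 change -0.30, SE 0.19, adjusted p = 1; adjusted p = 0.424 with the replicate block).

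**Figure D4:**
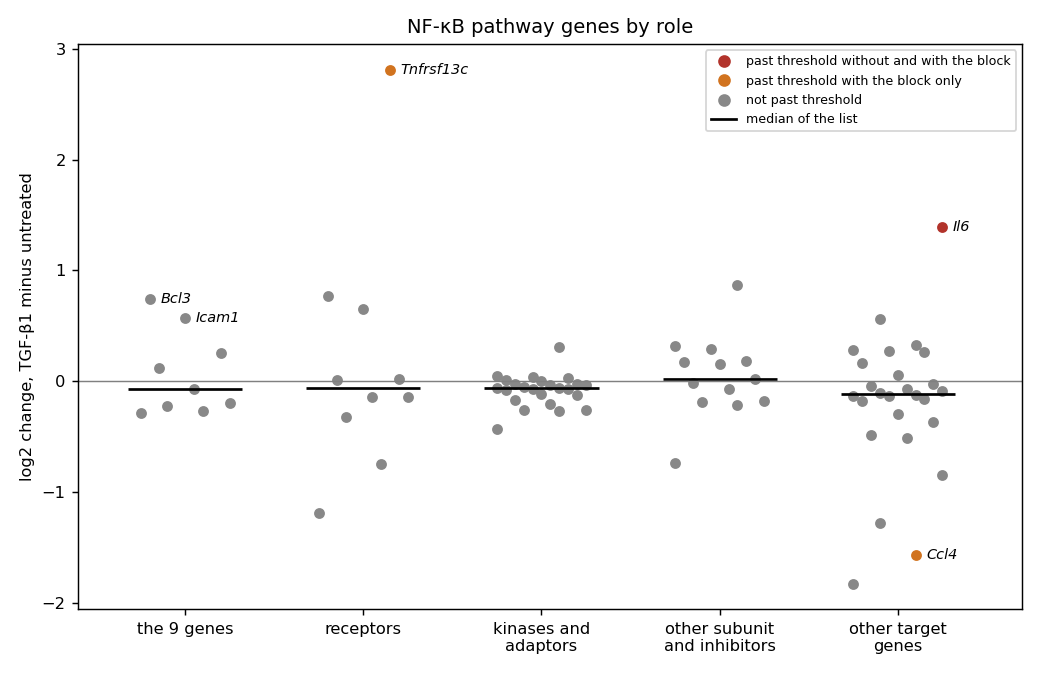
Fitted log2 change, TGF-β1 minus untreated (vertical axis), of each measured gene by list, with list medians as black lines; red marks genes past the adjusted threshold of 0.05 without and with the replicate block, orange those past it with the block only. Il6 is the red point, Tnfrsf13c and Ccl4 are orange, and the 9 genes at the left hold neither colour.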

How the data were processed

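Cy3-labelled RNA from 6 samples was read on 1-colour Agilent arrays of design 014868, and Feature Extraction 10.1.1.1 turned the scans into spot intensity, per the file headers. The deposited processed intensity is background-subtracted and detrended within the array and not scaled between arrays. The authors' deposited matrix holds log2 values; limma is named in the submitters' processing notes, with steps not given in the sources used here. Its columns followed the log2 median spot signal (r at least 0.9995).

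Values were log2 processed signal minus each array's 75th percentile, averaged over unflagged spots (43 to 101 flagged per array, 0 saturated). Probes well above background on at least 3 of 6 arrays entered (36384 of 41174). RefSeq accessions were named through the table of GRCm38.p6 (23374 probes), used for names and promoter windows. The brightest passing probe stood for a gene. The test was limma 3.58.1 (R 4.3.3) with no covariate, p-values being adjusted by Benjamini-Hochberg over all 29192 genes and transcripts, and was checked on simulated data. Same-numbered samples, numbered in the labels, deviated together (r 0.607, 0.777 and 0.545, against -0.725 to 0.0712 for other numbers), so the number is treated as pairing them. Deviations were taken from each group's own mean, so positive values for the same number push those for other numbers below 0. The values for other numbers are therefore not separate evidence of pairing. The planned normexp alternative used the median spot signal because the files hold no mean. Members, lists and tests were chosen with earlier results of these data known. Named genes are all members, every pathway-list gene past the threshold without or with the block, 11 fixed pathway genes, Smad7, Skil and the brightest gene of marker lists. Outside that rule Lhx2 is named because the line bears its name, and S100a8, Csf1r, Mrc1 and Ebf1 were named after their values were seen; 1 pathway gene is not reported here.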

Additional observations from a re-analysis of the deposited data

How the results depend on the processing

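None of the 9 genes passed in any of 18 alternatives, and 160 of their 162 values kept the direction. Rela had -0.088 with array weights and Birc3 0.025 within slide 2, neither called. Over these alternatives Bcl3 ran from 0.533 to 0.997 and Icam1 from 0.43 to 0.755, the highest of each with pairs 1 and 2 alone and the replicate block (adjusted p = 0.0766 and 0.0791), a setting chosen after seeing the data. The count of all genes past the threshold was 74; it was 190 with the replicate block (72 shared), 171 in the authors' matrix values, 660 with array weights, 5 with normexp, where the median of all genes moved to -0.16, 0 within either slide, where 1 group has a single array, and 7 to 23 with 1 array left out. The count of pathway list genes was 1; it was 3 with the replicate block, 2 with quantile normalization, the matrix values or the filter on all 6 arrays, 7 with array weights (3 higher, 4 lower), and 0 within either slide, with normexp, without the filter and with any 1 array left out. The count of genes lowest in pair 3 was 5 with normexp and in the matrix values, chosen after seeing the data. Pathway genes that did not pass changed sign: Rel, 0.317 as reported (-0.442 within slide 1, -0.169 with normexp), Ikbkb (0.021 blocked by slide and 0.049 within slide 2), Ikbkg (0.089 within slide 1) and Tnfrsf1a (0.007 with array weights). With 1 array left out, Rel ran from 0.042 to 0.716, Ikbkb from -0.155 to 0.008, Ikbkg from -0.158 to 0.013, Map3k14 from -0.024 to 0.058 and Tnfrsf1a from -0.259 to 0.011. Precision is limited by the small number of arrays.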
